A study of Homo sapiens with 6 samples.

Results

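The AP-1 family was followed here through 10 genes, FOS, FOSB, FOSL1, FOSL2, JUN, JUNB, JUND, BATF3, MAFF and MAFK, which were chosen by name from 61496 rows of the deposited tables and matched through their Ensembl identifiers. All 10 had a row and all 10 passed the filter on low counts. The RNA of both groups came from U251, an established human glioma cell line, and so from a single line. The 3 control libraries came from untreated cells. The other 3 came from cells exposed to sevoflurane (Sev), an inhaled anesthetic gas, for 2 h. The labels name a Sev concentration of 1.7% besides others of 3.4% and 5.1%, without saying which of them a given library received. The published volcano plot of this transcriptome comparison is captioned as 5.1% Sev against control. The study describes its quantitative data as independent experiments, but neither it nor the labels say whether the libraries of a group came from separate cultures, so the p-values measure the spread between these libraries, which may be technical.

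AP-1 is a dimeric transcription factor in which a pair of proteins is held together by a leucine zipper and grips DNA with adjoining basic regions. JUN proteins can pair with each other or with FOS proteins, whereas FOS proteins need a JUN or another zipper partner, and the small MAF proteins MAFF and MAFK lack a classical activation domain and pair with one another or with NRF and BACH proteins. Several of the genes are immediate early genes, whose short-lived transcripts rise within minutes of a growth factor or stress signal, and in gliomas the family is known for its part in mesenchymal and invasive gene programs.

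Library totals were between 38624292 and 46318311 counts, and 27514 features passed the filter. The first principal component held 69% of the variance and separated the groups, and the second held 10% and set Sev replicate 2 and Sev replicate 3 at opposite ends. All 8 glioma and astroglial markers were measured, with CD44 and EGFR higher and S100B and SOX2 lower under Sev by adjusted p, beside 22.1% of all tested features higher and 21.5% lower. The call of EGFR was lost under an alternative (adjusted p up to 0.429). Of 12 markers of immune, endothelial, neuronal and oligodendrocyte cells, 9 were tested, 3 were higher (PECAM1, SYT1 and MBP) and none was lower, and the calls of PECAM1 and MBP were lost under an alternative (adjusted p up to 0.171 and 0.0958). Their summed level was 31.2 to 38.1 CPM (counts scaled to a common library size) in control and 43.1 to 47.5 CPM in Sev libraries. Among the immune markers AIF1 had 0 counts throughout and PTPRC had 0 to 12. CD68 had 198, 88 and 104 counts in the control libraries and 176, 193 and 182 in the Sev libraries. The part of these markers in the results was not tested.

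To examine how the family responded to Sev, the counts were compared with edgeR's quasi-likelihood test, 3 libraries against 3. FOSL1, MAFF and MAFK rose, FOS and FOSB fell by smaller amounts, and FOSL2, JUN, JUNB, JUND and BATF3 did not pass the test. With a Benjamini-Hochberg adjusted p under 0.05, 3 of the 10 genes were higher, beside 22.1% of all tested features, and 2 were lower, beside 21.5%. With the study's threshold, a log2 fold change beyond 1 in either direction and an unadjusted p under 0.05, the same 3 genes were higher, beside 11.4% of all features, and 0 were lower, beside 12%. The counts of lower genes are at or under the background shares and those of higher genes somewhat above them, and no test was made of the 10 genes as a list. Levels below are TMM-normalized CPM, adjusted p-values are from the same edgeR test over all tested features, and fold changes are Sev over control with their standard error (SE).

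**Figure D1:**
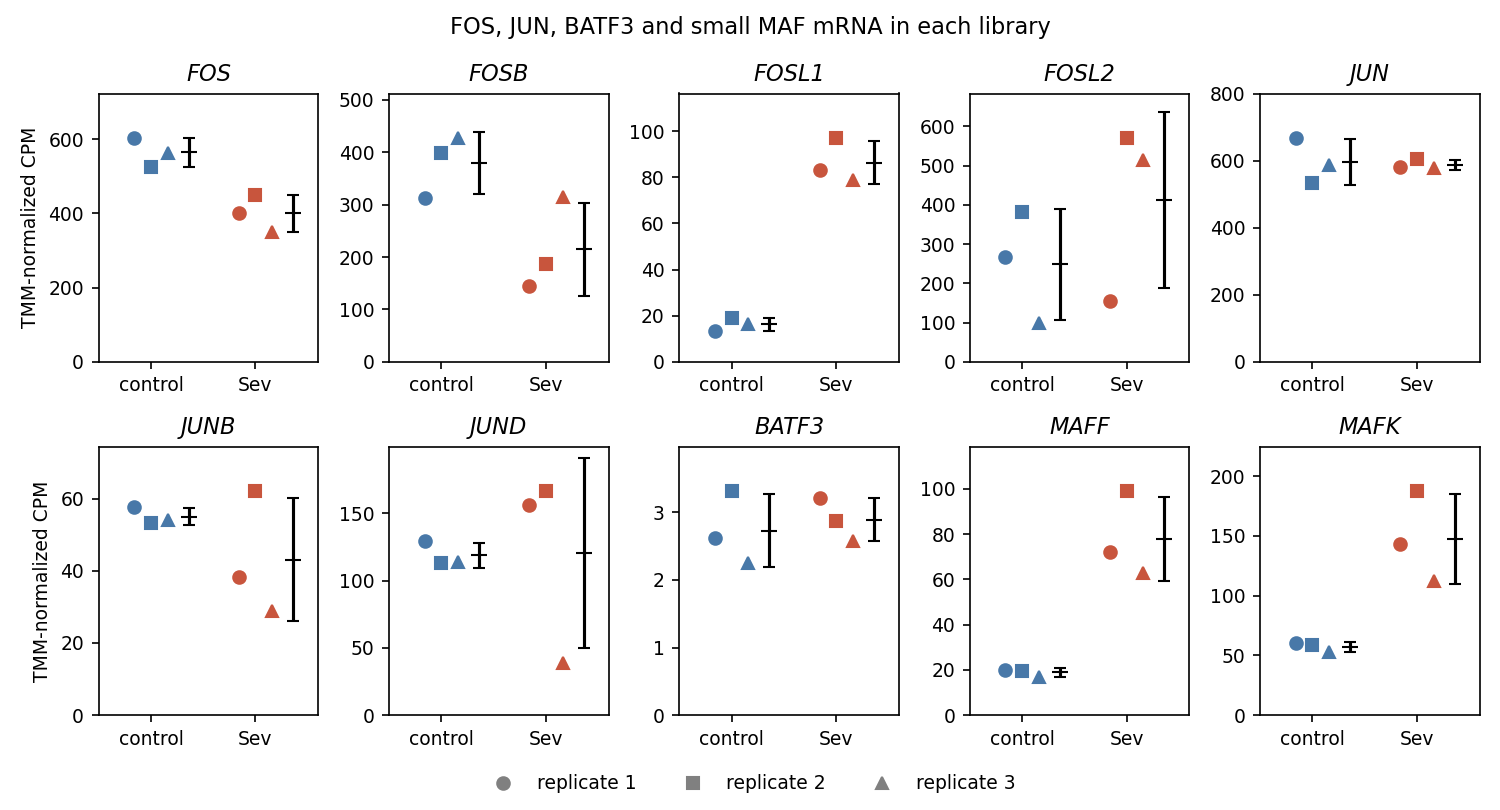
TMM-normalized CPM (y axis, starting at 0) of the 10 genes in the 3 control and 3 Sev libraries, one panel per gene, with a marker shape for each replicate number and the mean ± SD in black. FOSL1, MAFF and MAFK lie higher in every Sev library than in any control library, FOS lies lower, and FOSL2 and JUND have libraries far from the others of their group.

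FOS, on chromosome 14 (GRCh38, as for all positions of genes here, 75278774 to 75282230, plus strand), encodes the classical FOS partner of JUN and is transcribed within minutes of serum or calcium signals. Its level was 602, 526 and 564 CPM in the control libraries and 400.4, 448 and 349.9 CPM in the Sev libraries. The groups did not overlap, and the spread within each was small. FOS fell by 0.50 on the log2 scale (SE 0.11, adjusted p = 0.00789), to 0.709 of the control level. The call held when any library was left out and under each other setting tried, with adjusted p between 0.000832 and 0.0299. In bulk RNA, fewer cells that express a gene and less RNA in each cell cannot be told apart.

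FOSB, on chromosome 19 (45467995 to 45475179, plus strand), encodes another strongly inducible FOS protein, known in neurons for a long-lived truncated form. It was measured at 313, 398 and 426 CPM in the control libraries and at 144, 186 and 315 CPM in the Sev libraries. Sev replicate 3 reached the level of control replicate 1, so the groups overlapped. The log2 fold change was -0.82 (SE 0.27) with an adjusted p of 0.0392. This call was lost without control replicate 2 (adjusted p = 0.0921), control replicate 3 (0.109), Sev replicate 1 (0.0982) or Sev replicate 2 (0.110), and also with no filter on low counts (0.0603) or with limma on unfiltered FPKM values (0.0794). The direction held in all of these, with log2 fold changes from -1.20 to -0.60 when a library was left out. ERCC1, a DNA repair gene on the opposite strand, overlaps FOSB.

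FOSL1, on chromosome 11 (65892049 to 65900573, minus strand), encodes FRA1, a FOS protein without the strong activation domain of FOS that is itself a known AP-1 target and is abundant in invasive tumor cells. It had 13.5, 19.1 and 16.3 CPM in the control libraries and 83.4, 97.0 and 78.8 CPM in the Sev libraries. Every Sev library was far above every control library, and the raw counts, 573 to 790 against 3120 to 3643, leave little counting error. FOSL1 rose 5.30-fold, a log2 fold change of 2.41 (SE 0.15, adjusted p = 6.67e-05), which was at the 96.3 percentile of all tested features. It was the largest change among the 10 genes in this fit, and with 1 library left out the log2 fold change was between 2.28 and 2.53.

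FOSL2, on chromosome 2 (28392448 to 28417312, plus strand), encodes FRA2, the other FOS protein of this kind. Its level was 267, 381 and 98.3 CPM in the control libraries and 155, 569.9 and 513 CPM in the Sev libraries. The groups overlapped, and 1 library in each group, control replicate 3 and Sev replicate 1, lay far below the others. The highest library was 3.87 times the lowest among controls and 3.68 times among Sev libraries. The log2 fold change was 0.73 (SE 0.56, adjusted p = 0.322). It was 0.35 without control replicate 3 and 1.12 without Sev replicate 1, and no setting brought the adjusted p under 0.107. A change of FOSL2 was therefore not detectable with this spread, and the cause of the spread was not tested.

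JUN, on chromosome 1 (58780788 to 58784327, minus strand), encodes c-JUN, the main target of the JNK kinases within AP-1. It was at 667, 534 and 588 CPM in the control libraries and at 583, 605 and 578 CPM in the Sev libraries. The 3 Sev values lie within the control range. The log2 fold change was -0.02 (SE 0.097, adjusted p = 0.889), a difference smaller than the spread between controls, and it lay between -0.23 and 0.060 under the alternatives.

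JUNB, on chromosome 19 (12791496 to 12793315, plus strand), encodes a JUN protein that often opposes c-JUN in the control of cell division. It had 57.8, 53.2 and 54.1 CPM in the control libraries and 38.4, 62.0 and 28.9 CPM in the Sev libraries. The controls were close together, whereas Sev replicate 2 was above them all and the other 2 Sev libraries below. The log2 fold change was -0.35 (SE 0.24, adjusted p = 0.273). Without Sev replicate 3 it was -0.13 with an adjusted p of 0.613, without Sev replicate 2 it was -0.71 with an adjusted p of 0.00711, and after the dependence on GC content and exon length was taken out of each library it was -0.66 with an adjusted p of 0.0471. HOOK2, which overlaps JUNB on the opposite strand, was itself lower under Sev.

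JUND, on chromosome 19 (18279760 to 18281622, minus strand), encodes the JUN protein that is present in resting cells and changes least with growth signals. It was measured at 129.8, 113 and 114 CPM in the control libraries and at 156, 166 and 39.1 CPM in the Sev libraries. Sev replicates 1 and 2 were above all controls and Sev replicate 3 was far below them, a ratio of 4.25 between the highest and lowest Sev library. The log2 fold change was 0.02 (SE 0.44, adjusted p = 0.975). Without Sev replicate 3 it was 0.44 with an adjusted p of 0.0120, so a single library decides whether JUND is called. The cause of the low value was not tested.

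BATF3, on chromosome 1 (212686418 to 212699985, minus strand), encodes a small zipper protein that pairs with JUN and is best known in dendritic cells. It was the least abundant of the 10 genes, with 102 to 131 counts in a library. Its level was 2.62, 3.31 and 2.25 CPM in the control libraries and 3.21, 2.87 and 2.57 CPM in the Sev libraries, which overlap. The log2 fold change was 0.085 (SE 0.20, adjusted p = 0.762).

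MAFF and MAFK encode small MAF proteins, and both rose. MAFF, on chromosome 22 (38200767 to 38216511, plus strand), was at 20.1, 19.7 and 16.8 CPM in the control libraries and at 72.0, 98.8 and 62.8 CPM in the Sev libraries. All Sev libraries were well above the controls. MAFF rose 4.13-fold, a log2 fold change of 2.05 (SE 0.18, adjusted p = 0.00018).

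MAFK, on chromosome 7 (1530714 to 1543043, plus strand), had 60.5, 58.7 and 52.5 CPM in the control libraries and 143, 187 and 112 CPM in the Sev libraries. The groups were again apart, with Sev replicate 2 highest for both MAFF and MAFK and Sev replicate 3 lowest. MAFK rose 2.58-fold, a log2 fold change of 1.37 (SE 0.17, adjusted p = 0.000819). Both calls held under every alternative, with adjusted p up to 0.00263 for MAFF and 0.00901 for MAFK. TMEM184A, on the opposite strand and overlapping MAFK, had 225 to 674 counts in control libraries, where MAFK had 2326 to 2560, and was also higher under Sev.

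**Figure D2:**
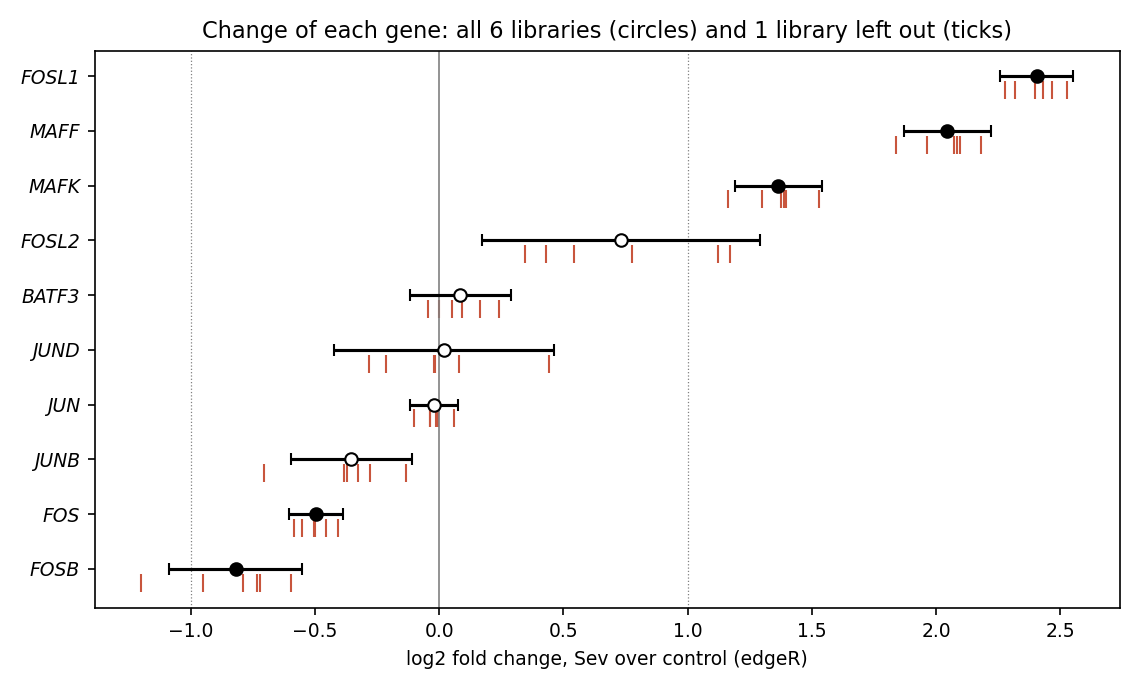
Log2 fold change of the 10 genes, Sev over control (x axis), with circles and bars for the edgeR estimate ± SE from all 6 libraries, filled where the adjusted p is under 0.05, and red ticks for the estimate with 1 library left out. The ticks of FOSL1, MAFF and MAFK stay above 1, those of FOS and FOSB stay below 0, and those of JUND run from -0.28 to 0.44.

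Levels of different genes were compared as FPKM, which are scaled by gene length. In control cells JUN (156 ± 20.8 FPKM, SD, n = 3) and FOS (151 ± 13.3) were the most abundant and their ranges overlapped. FOSB (57.9 ± 8.19) and JUND (52.4 ± 5.26) formed the next pair with overlapping ranges, followed by FOSL2 (29.4 ± 16.6) and JUNB (25.6 ± 1.66), which also overlapped. MAFK (10.9 ± 0.909), FOSL1 (7.31 ± 1.10), MAFF (2.85 ± 0.296) and BATF3 (0.889 ± 0.164) came below, each apart from the next.

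In Sev cells JUN (139 ± 1.76 FPKM) was followed by FOS (96.3 ± 8.64), now without overlap. FOSL1 (35.1 ± 2.67 FPKM) moved from place 8 to place 5, and its range overlapped that of FOSB (29.96 ± 13.3). JUND (47.4 ± 27.2), FOSL2 (44.2 ± 23.9), MAFK (25.2 ± 5.58), JUNB (17.9 ± 6.49) and MAFF (mean 10.6, range 8.89 to 13.1) made up the rest of a middle group in which each range overlapped the next, and BATF3 (0.851 ± 0.0908) stayed last.

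The composition of each family was then taken within each library as a share of the summed FPKM. FOSL1 held 2.47%, 3.36% and 3.12% of the FOS family in the control libraries and 20.3%, 16.8% and 14.9% in the Sev libraries. The groups were far apart, a difference of 14.4 percentage points, or of 6.77 points when shares were taken of raw counts, which are not scaled by gene length. The two-sided exact permutation p was 0.1, the smallest that 3 libraries against 3 allow, and 0.42 after adjustment over the 7 shares, so no share could pass the threshold. The share of FOS was 61.5% ± 5.60 in control and 47.7% ± 9.38 in Sev libraries (SD, n = 3, exact permutation p = 0.2), and that of FOSB was 23.7% ± 4.18 and 14.4% ± 5.09 (exact permutation p = 0.2). FOSL2 went from 11.8% ± 6.43 to 20.5% ± 9.18 (exact permutation p = 0.3), with control replicate 3 at 4.97% and Sev replicate 1 at 9.94%. Its difference of 8.69 points was 14.8 points in raw counts, 5.26 points without control replicate 3 and 13.99 points without Sev replicate 1.

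In the JUN family the mean shares moved less. JUN held 66.6% ± 1.25 in control and 69.2% ± 12.1 in Sev libraries, JUND 22.4% ± 0.758 and 22.2% ± 10.97, and JUNB 10.98% ± 0.578 and 8.65% ± 2.10 (exact permutation p = 1, 1 and 0.3, n = 3). The wide Sev spread comes with replicate 3, in which JUND held 9.50% and JUN 83.1%. Without it the JUND share was 6.05 points higher under Sev and the JUN share 4.34 points lower. The JUNB share was 2.33 points lower under Sev in all libraries and 3.54 points lower without Sev replicate 2. The summed FOS family was at 245 ± 10.0 FPKM in control and 206 ± 33.1 FPKM in Sev libraries, and the summed JUN family at 234 ± 27.5 and 204 ± 30.6. The ranges overlapped in the JUN family. In the FOS family the lowest control sum, 233.8 FPKM, was only just above the highest Sev sum, 226.9 FPKM. The FPKM were used as deposited, without the TMM scaling of the CPM above, so this small gap is not a result about the family.

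**Figure D3:**
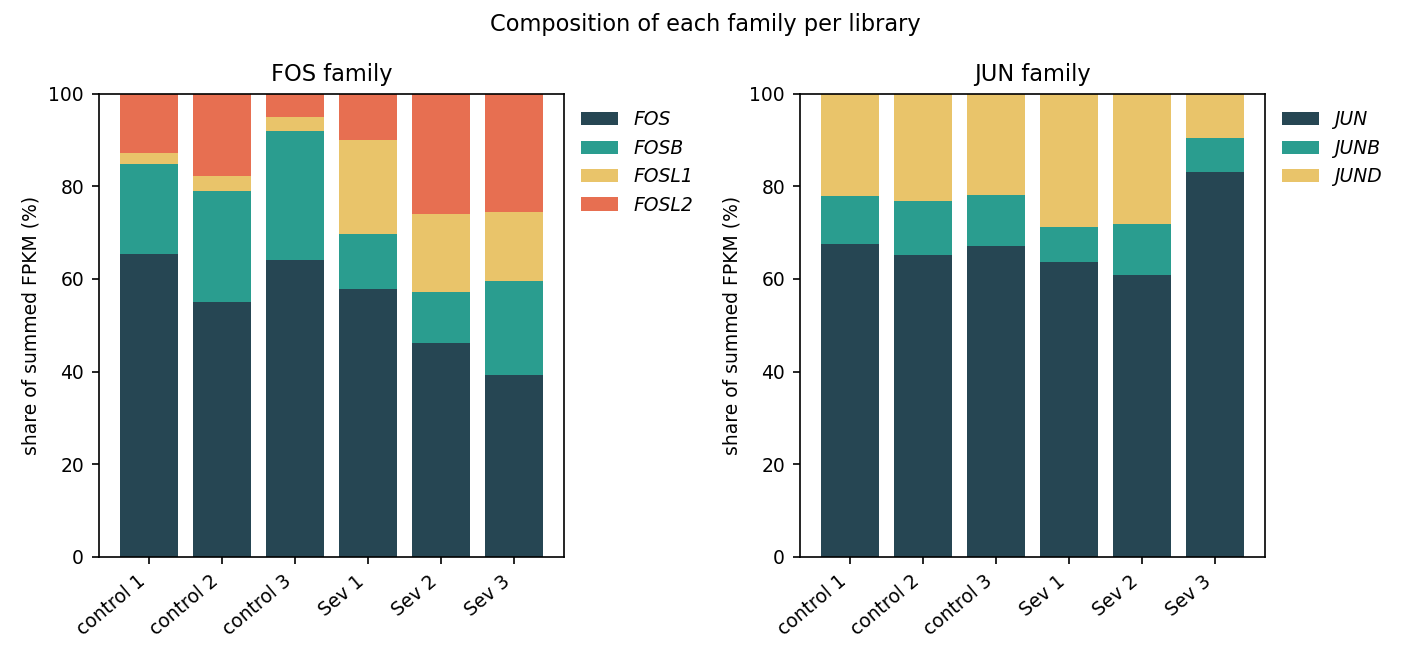
Share of the summed FPKM (y axis, percent) of the FOS family (left) and the JUN family (right) held by each gene in each library. FOSL1 takes 2.47% to 3.36% of the FOS family in control and 14.9% to 20.3% in Sev libraries, and Sev replicate 3 has the smallest share of JUND, 9.50%.

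Promoter sequence was available from RefSeq (GRCh38.p14) for 7 of the 10 genes, FOS, FOSB, FOSL2, JUN, JUNB, JUND and MAFF. The 250 bases before each start were searched on both strands for the cAMP response element core TGACGT and its full palindrome TGACGTCA, which contains the core on both strands, for the AP-1 element TGACTCA, for TATAAA and for the CArG box. The core lay at -64 in FOS, -60 in FOSB, -66 in FOSL2 and -54 in MAFF, counted from the start, and at 2 places in JUND, of which the one farther from the start is the full palindrome, at -200. RefSeq gives MAFF a second start, and the window before it held none of these motifs. The core is found in 7.1% of the 35116 promoter windows searched, and the palindrome, which MAFF and JUND hold, in 1.65%. The stretches around the core are shown because 5 of the 7 genes share it while their RNAs moved differently, with FOS and FOSB lower, MAFF higher, and FOSL2 and JUND not called. Capitals mark the core, or in MAFF the palindrome, and in JUND the core reads on the other strand.
FOS, chr14:75278752-75278781, plus strand: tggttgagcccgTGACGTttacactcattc
FOSB, chr19:45467924-45467953, plus strand: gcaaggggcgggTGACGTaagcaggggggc
FOSL2, chr2:28392780-28392809, plus strand: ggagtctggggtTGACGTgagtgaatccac
JUND, chr19:18281692-18281721, minus strand: tgcaaatgagcgACGTCAcccgcacccaat
MAFF, chr22:38201929-38201958, plus strand: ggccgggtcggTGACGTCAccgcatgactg
TATAAA, held by 10.7% of windows, lay at -33 in FOS, -30 in FOSB and -31 in JUNB. TGACTCA (4.2% of windows) and the CArG box (1.16%) had no match in these windows, which says only that the letters are not there. Bases farther upstream than 250 were not searched, so an element there would be missed.

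The AUUUA pentamer, a short element of unstable mRNAs, was counted as ATTTA in the annotated 3′ untranslated region of each gene's longest coding transcript in GENCODE 29. FOS held 5 in 806 bases, FOSL2 9 in 4864 bases, MAFK 5, MAFF 4, FOSB and JUN 3 each, JUNB 2, and FOSL1, JUND and BATF3 1 each, beside a median of 2 over 14910 genes. The genes that rose and the genes that fell therefore do not separate by this count, since FOSL1 held 1 and MAFK held as many as FOS. The same longest coding transcripts had a GC content from 52.6% in FOS to 69.7% in JUND, all above the median of 49.1%. FOS was at the 60.7 percentile and JUND at the 99.5 percentile. JUN and JUNB have a single exon in all annotated transcripts.

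The genes around the family were described through 5 lists written from general knowledge, beside a median log2 fold change of -0.0056 over all tested features. Counts use the adjusted p of the edgeR test, for which the background is 22.1% higher and 21.5% lower. Of 19 dimer partners outside the 10 genes, 17 were tested, 7 were higher and 1 was lower, with a median log2 fold change of 0.25 that was 0.11 with scaling by library size only. Of the 7 higher calls, that of MAF was lost under an alternative (adjusted p up to 0.156). That of BATF2 rests on 5, 6 and 0 counts in the control libraries and 17, 34 and 23 in the Sev libraries. BATF2 passed the filter on low counts only through the Sev libraries, so it could be tested only because it is higher there. CREB5, a CRE-binding zipper protein, rose from 49.3 ± 3.49 to 115 ± 11.4 CPM (log2 fold change 1.22, SE 0.10, adjusted p = 0.000166). BACH1, which pairs with small MAF proteins to repress heme and antioxidant genes, rose from 27.6 ± 0.835 to 59.0 ± 7.24 CPM (log2 fold change 1.10, SE 0.11, adjusted p = 0.000304). Its relative BACH2 is on the same list and was also higher, with a log2 fold change of 1.06. HMOX1, a heme gene on the AP-1 target list, was higher too (log2 fold change 2.17, adjusted p = 0.000436). NFE2L1, NFE2L2 and NFE2L3, which encode NRF proteins, had log2 fold changes of -0.48, -0.11 and 0.14 and did not pass the test in this fit. The small MAF gene MAFG, at 0.23, did not pass it either. ATF2, a kinase-activated partner of JUN, was the partner that fell, from 55.6 ± 1.09 to 41.5 ± 1.34 CPM (log2 fold change -0.42, SE 0.077, adjusted p = 0.00375), with an adjusted p of up to 0.0643 under an alternative.

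Among 32 upstream kinases and factors, 8 were higher and 5 lower, with a median log2 fold change of 0.16 that was 0.015 with scaling by library size only. MAP2K3, a kinase that activates p38, rose from 23.6 ± 3.50 to 60.0 ± 9.08 CPM (log2 fold change 1.35, SE 0.15, adjusted p = 0.000512), and MAPK13, a p38 kinase, had a log2 fold change of 1.15 (adjusted p = 0.00255). The p38 kinase MAPK11 was also higher, with a log2 fold change of 0.70 (adjusted p = 0.0102, up to 0.0786 under an alternative). The p38 kinase MAPK12 went the other way, with a log2 fold change of -0.67 (adjusted p = 0.00849), and neither MAPK14 (-0.40, adjusted p = 0.219) nor the p38 activator MAP2K6 (-0.69, adjusted p = 0.0543) passed the test. CREB1, the factor that binds the cAMP response element, fell from 31.6 ± 3.96 to 16.8 ± 0.518 CPM (log2 fold change -0.91, SE 0.11, adjusted p = 0.000779). MAPK10, the JNK kinase typical of neurons, fell from 6.66 ± 2.06 to 3.71 ± 0.400 CPM (log2 fold change -0.84, adjusted p = 0.0229), and its adjusted p reached 0.174 under an alternative. The 8 higher and 5 lower of 32 are near the background shares, and 5 of the 8 higher and 2 of the 5 lower calls were lost under an alternative.

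Of 21 other immediate early genes, 20 were tested, 6 were higher and 1 was lower, and 3 of the 6 higher calls, those of EGR1, IER3 and MCL1, were lost under an alternative. Their median of 0.18 was 0.029 with scaling by library size only, 0.019 with limma on log2(FPKM + 1) and 0.076 without Sev replicate 2. CCN2, a matrix-associated growth regulator, rose from 770.5 ± 110.4 to 2653 ± 231 CPM (log2 fold change 1.78, SE 0.13, adjusted p = 0.000112). IER3 had 112, 87 and 116 counts in the control libraries and 300, 750 and 140 in the Sev libraries, a log2 fold change of 2.12 (SE 0.55, adjusted p = 0.0164) whose adjusted p reached 0.148 under an alternative. BTG2, an anti-proliferative gene, fell from 30.9 ± 4.77 to 7.97 ± 3.94 CPM (log2 fold change -1.96, SE 0.32, adjusted p = 0.00228).

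Of 24 known AP-1 targets, 19 were tested, 11 were higher and 0 were lower, with a median of 0.44. The median was 0.77 without control replicate 2 and 0.75 with no expression filter. It was 0.31 with scaling by library size only and 0.30 with limma on unfiltered log2(FPKM + 1). The calls of PLAU, IL6 and SPP1 were lost under an alternative, with adjusted p up to 0.0744, 0.245 and 0.0763. The matrix metalloproteinase genes MMP1, MMP3, MMP9 and MMP13, and AREG, did not pass the filter on low counts. CXCL8, the neutrophil chemokine, had 76, 130 and 101 counts in the control libraries and 1226, 1111 and 1040 in the Sev libraries, a log2 fold change of 3.63 (SE 0.23, adjusted p = 7.6e-05). MMP10, a stromelysin, had 1, 3 and 0 counts in the control libraries and 94, 103 and 75 in the Sev libraries, and was at least 34.2-fold higher against a floor of 3 counts per control library. MMP10 is among the 11 higher targets and, like BATF2, passed the filter on low counts only through the Sev libraries. CD44, which is also among the glioma markers, and CCND1, the cyclin of early division, were higher with log2 fold changes of 0.97 and 0.98. Binding of AP-1 to these genes was not measured.

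Of 15 genes of AP-1 mRNA and protein turnover, 6 were higher and 2 lower. Their median of 0.26 was 0.12 with scaling by library size only, 0.096 with limma on log2(FPKM + 1) and 0.17 without control replicate 1, and 4 of the 6 higher calls, those of HNRNPD, CNOT7, COP1 and ITCH, were lost under an alternative. KHSRP, an AU-rich element binding protein, rose from 194 ± 21.7 to 354 ± 15.4 CPM (log2 fold change 0.87, SE 0.097, adjusted p = 0.000486). ZFP36L2 rose by 0.76 on the log2 scale (adjusted p = 0.00164) and its relative ZFP36L1 fell by 0.71 (adjusted p = 0.00195), although both encode proteins that bind such elements and speed decay. DET1, part of the ubiquitin ligase that degrades c-JUN, fell from 14.1 ± 3.87 to 6.20 ± 1.51 CPM (log2 fold change -1.18, SE 0.25, adjusted p = 0.00747). COP1, its partner in that ligase, and ITCH, another ligase for JUN proteins, had log2 fold changes of 0.28 (adjusted p = 0.0401) and 0.26 (adjusted p = 0.0469).

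**Figure D4:**
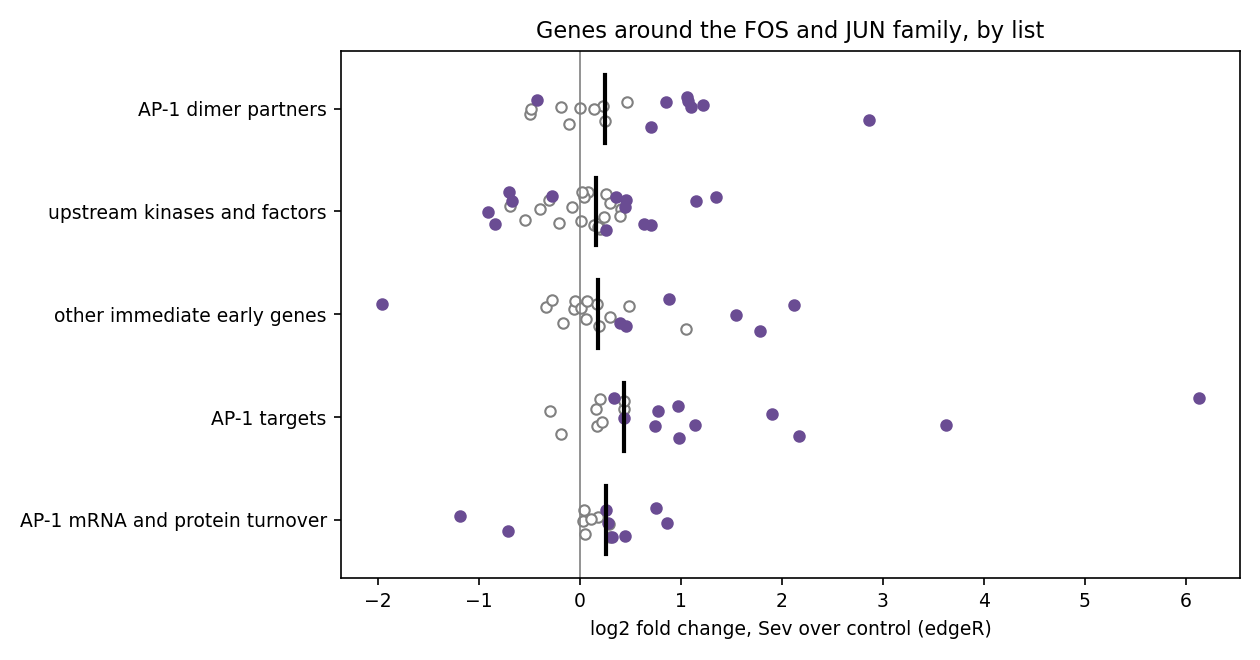
Log2 fold change, Sev over control (x axis), of the tested genes of 5 lists, with filled points where the edgeR adjusted p is under 0.05, open points otherwise, and a black bar at each list's median. The medians lie between 0.16 and 0.44, and no gene of the AP-1 target list that passed the test lies below 0.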

How the data were processed

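Total RNA of U251 cells was sequenced after ribosomal RNA depletion with strand-specific adapters, in 3 control and 3 Sev libraries. The authors deposited a count table, with whole reads per gene and no normalization, and a table of FPKM values for the same features. The submitters' processing notes name bcl2fastq 2.19, featureCounts and the build hg18, with no role or order. The strand setting of the counting is not given in the sources used here. Positions and gene types were joined by Ensembl identifier to GENCODE 29 (GRCh38), and promoter windows came from RefSeq (GRCh38.p14).

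The count test was edgeR 4.0.16 under R 4.3.3 (filterByExpr, TMM, glmQLFit and glmQLFTest, no covariate), with Benjamini-Hochberg adjustment over all tested features and a limit of 0.05. The fit was tested on simulated data. Alternatives were DESeq2 1.42.0 (its size factors and Wald test), library size only, other filters, a replicate block, limma 3.58.1 on log2(FPKM + 1) or log2(FPKM + 0.1), and each library left out. Taking out each library's dependence on GC content and exon length was added after the data were seen. FPKM shares were compared by exact permutation. The members and lists were chosen with earlier results of these data known. Besides the 10 members, the text names up to 2 genes per direction and list, those with the largest change among genes with adjusted p under 0.05, a mean of at least 1 CPM and groups that do not overlap. It also names genes overlapping or starting within 5000 bases of a member, and the 3 genes most like FOS and JUN. BACH2, CD44, CCND1, SYT1, MAF, MAPK11, MAPK12, MAPK14, MAP2K6, EGR1, MCL1, PLAU, IL6, SPP1, HNRNPD, CNOT7, COP1 and ITCH were named after their values were seen. So were BATF2, CD68, PTPRC, HMOX1, NFE2L1, NFE2L2, NFE2L3 and MAFG. Depth was 38624292 to 46318311 counts per library, and 3 replicates per group limit the precision.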

Additional observations from a re-analysis of the deposited data

How the results depend on the processing

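Across 16 alternative settings FOSL1, MAFF and MAFK stayed higher and FOS lower, each past the test. Of the values recomputed for single members, 135 kept their direction and call, 16 changed sign, 6 lost a call and 3 gained one. Counts that moved by over 1.5 times, medians and shares that moved past the spread between replicates, and changes of sign are given below with the larger of the other moves. Depth limits BATF3 most, with 102 to 131 counts in a library. The number of members called lower was 1 with no expression filter and with limma on unfiltered log2(FPKM + 1), 1 to 2 when a library was left out, and 3 after the dependence on GC content and exon length was taken out, where JUNB joined. Without Sev replicate 3, 4 members were higher, JUND being the added one. The cause was not tested. Scaling by library size only moved the median of all features by -0.14, and turned JUND to -0.14 and BATF3 to -0.056, with list medians of 0.015 for upstream kinases and factors, 0.12 for turnover, 0.029 for other immediate early genes and 0.11 for dimer partners. That scaling gave 2692 features past the threshold higher and 4115 lower, beside 3147 and 3315, and 4665 and 7502 by adjusted p, beside 6094 and 5920. At least 10 counts in every library left 1691 higher and 2148 lower past the threshold among fewer features. With limma on log2(FPKM + 1) the counts past the threshold were 577 and 690 (574 and 686 unfiltered), 3584 were higher and 6726 lower by adjusted p (4386 and 7140 unfiltered), JUND was -0.37, BATF3 -0.027, and the list medians were 0.023 for upstream kinases and factors (0.0069 unfiltered), 0.096 for turnover, 0.019 for other immediate early genes and, unfiltered, 0.039 for dimer partners. With log2(FPKM + 0.1) 1460 were higher and 2930 lower past the threshold, 3269 higher and 6294 lower by adjusted p, JUND was -0.38, BATF3 -0.047, and the medians were 0.024 for upstream kinases and factors, 0.10 for turnover and 0.020 for other immediate early genes. The AP-1 target median was 0.75 with no expression filter. It was 0.31 with scaling by library size only and 0.30 with limma on unfiltered log2(FPKM + 1). After the dependence on GC content and exon length was taken out, JUND was -0.32 and the medians were 0.0019 for upstream kinases and factors, 0.074 for other immediate early genes and 0.11 for dimer partners. Leaving out a library gave JUN -0.10 to 0.060, JUND -0.28 to 0.44, JUNB -0.71 to -0.13, BATF3 -0.044 to 0.24, upstream medians of 0.086 to 0.17, target medians of 0.46 to 0.77, turnover medians of 0.17 to 0.28, immediate early medians of 0.076 to 0.29, dimer partner medians of 0.21 to 0.35, and differences in share of -4.34 to 6.83 points for JUN, -3.61 to 6.05 for JUND, 12.9 to 15.6 for FOSL1 and 5.26 to 13.99 for FOSL2. Raw counts in place of FPKM gave 6.77 for FOSL1 and 14.8 for FOSL2.

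The replicate numbers did not pair the samples: same-numbered libraries correlated at -0.0072, 0.0035 and 0.027 in their deviations. The replicate block gave 3079 features higher and 3255 lower past the threshold, and 5228 and 5021 by adjusted p, and turned JUND to -0.21.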

Other observations

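Annotated neighbours of the family were also measured. LINC01135, which starts 801 bases from the start of JUN on the other strand, had 66, 45 and 70 counts in the control libraries and 31, 33 and 25 in the Sev libraries, a log2 fold change of -0.83 (SE 0.25, edgeR adjusted p = 0.0292), while JUN itself had one of -0.02. HOOK2, overlapping JUNB, fell from 13.9 to 5.19 mean CPM, a log2 fold change of -1.42 (adjusted p = 0.000735). TMEM184A, overlapping MAFK, rose from 9.70 to 28.9 mean CPM, a log2 fold change of 1.57 (adjusted p = 0.00739). ERCC1, overlapping FOSB, had a log2 fold change of 0.29 (adjusted p = 0.0162), opposite in sign to FOSB, and PLA2G6, overlapping MAFF, one of -0.04 (adjusted p = 0.868). FOSL2-AS1, antisense to FOSL2, had 97 to 163 counts in control and 137 to 161 in Sev libraries, without the low values that FOSL2 showed in control replicate 3 and Sev replicate 1. The unnamed sense-intronic gene ENSG00000270640, within FOSL2, had 366 to 432 counts in control and 386 to 533 in Sev libraries, a log2 fold change of 0.39 (adjusted p = 0.0836). MIR5684 near JUNB, and RPL39P38 and MIR3188 near JUND, had 0 to 4 counts and were not tested. CCDC85B, chosen after its values were seen, ends 414 bases from the end of FOSL1 on the other strand and rose from 16.0 to 54.0 mean CPM, a log2 fold change of 1.75 (SE 0.13, adjusted p = 0.000122). Reads of overlapping genes on opposite strands can be told apart only if the counting used strand, which is not stated.

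The jumps of FOSL2 and JUND between libraries of the same group were rare. Among 9649 protein-coding genes with at least 10 CPM, 82 (0.850%) differed over 3-fold between the highest and lowest control library and 103 (1.07%) between Sev libraries, and 27 (0.280%), FOSL2 among them, did so in both groups. In 17 genes (0.176%), JUND among them, Sev replicate 3 alone lay over 3-fold below the other 2 Sev libraries. Over the 6 libraries, the log2 CPM of XPC, a DNA repair gene, BBOX1 and TPRG1 followed FOS most closely (Pearson's r of 0.997 each), and DOCK3, CACNA2D2 and TM4SF19-AS1 followed JUN (r of 0.968, 0.966 and 0.963), out of 16114 genes searched. These values are a description of 6 points that fall into the 2 groups.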
